A study of Mus musculus with 19 samples.

Results

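The genes described here encode the cell surface proteins that are used to sort or enrich mouse spermatogonia: Thy1, Itga6, Itgb1, Epcam, Cdh1, Adgra3, Cd9, Mcam and Cd24a. They were taken by name, 9 of the 26182 genes with a curated RefSeq transcript, and for each one all SOX3 ChIP-seq peaks within 2 kb of its transcription start site (TSS), elsewhere in its gene body or within 50 kb of the gene were collected in each of 2 replicates. SOX3 ChIP-seq and SOX3 ChIP-nexus, 2 replicates each, were made from whole mouse testis at postnatal day 7 with antibodies to SOX3. Per the study's ChIP-seq methods the tissue was seminiferous tubules of several juvenile mice. Neither those methods nor the sample labels give a genotype for these samples. The ChIP-seq list of replicate 1 was longer, with 58351 peaks against 38832 in replicate 2. By the study's own read numbers, the shorter list came from the library with more unique reads. The other 15 of the 19 labelled samples (inputs, ZBTB16, SALL4 and histone marks) were not analysed here. Tubules hold Sertoli and peritubular cells beside spermatogonia, so a peak cannot be assigned to one cell type. The lists hold no RNA or protein levels, and whether the cells carried these proteins was not measured.

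SOX3 belongs to the SOXB1 group of transcription factors, which bind a short AT-rich consensus through an HMG box, and in the testis it is found in undifferentiated spermatogonia (uSPG). The 9 proteins fall into a few classes. ITGA6 and ITGB1 form a laminin receptor through which spermatogonia hold on to the basement membrane, and CD9 is a tetraspanin that associates with integrins. CDH1 (E-cadherin) and EPCAM join neighbouring cells. THY1 and CD24A are anchored in the membrane by a glycolipid, MCAM is an adhesion protein of the immunoglobulin superfamily, and ADGRA3 (also GPR125) is an adhesion G-protein-coupled receptor. None of these proteins is restricted to germ cells, and sorting relies on their levels and combinations.

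Start site sequences are shown first, because most promoter peaks of these genes covered the start site. They are given for the 5 of the 9 genes that the RefSeq promoter table (mm10, GRCm38) held, Itgb1, Epcam, Adgra3, Cd9 and Mcam, and not for Thy1, Itga6, Cdh1 and Cd24a. Each sequence runs from 250 bases before the start site to 50 bases after it on the strand of the gene, and capitals mark CpG dinucleotides.

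Itgb1 (chr8:128685404-128685703, plus strand): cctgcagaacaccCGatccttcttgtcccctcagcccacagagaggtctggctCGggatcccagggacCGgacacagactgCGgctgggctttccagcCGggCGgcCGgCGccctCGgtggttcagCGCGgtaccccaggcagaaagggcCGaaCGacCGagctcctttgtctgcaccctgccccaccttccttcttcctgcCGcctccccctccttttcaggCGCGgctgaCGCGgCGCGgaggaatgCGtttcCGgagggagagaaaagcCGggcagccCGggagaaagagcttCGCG
Adgra3 (chr5:50058947-50059246, minus strand): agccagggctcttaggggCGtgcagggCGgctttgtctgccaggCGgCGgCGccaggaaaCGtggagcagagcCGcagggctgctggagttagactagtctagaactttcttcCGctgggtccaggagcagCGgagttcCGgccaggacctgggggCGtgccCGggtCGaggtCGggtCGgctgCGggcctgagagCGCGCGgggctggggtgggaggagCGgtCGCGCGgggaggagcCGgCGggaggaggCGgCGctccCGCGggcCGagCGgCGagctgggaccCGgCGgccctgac
Mcam (chr9:44134408-44134707, plus strand): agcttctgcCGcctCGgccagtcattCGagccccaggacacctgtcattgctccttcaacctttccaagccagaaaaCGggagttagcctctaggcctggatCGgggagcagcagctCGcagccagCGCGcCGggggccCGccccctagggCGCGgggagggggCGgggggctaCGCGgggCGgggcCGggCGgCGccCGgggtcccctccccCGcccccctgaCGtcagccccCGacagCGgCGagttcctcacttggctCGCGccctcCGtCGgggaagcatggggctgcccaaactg
Cd9 (chr6:125494711-125495010, minus strand): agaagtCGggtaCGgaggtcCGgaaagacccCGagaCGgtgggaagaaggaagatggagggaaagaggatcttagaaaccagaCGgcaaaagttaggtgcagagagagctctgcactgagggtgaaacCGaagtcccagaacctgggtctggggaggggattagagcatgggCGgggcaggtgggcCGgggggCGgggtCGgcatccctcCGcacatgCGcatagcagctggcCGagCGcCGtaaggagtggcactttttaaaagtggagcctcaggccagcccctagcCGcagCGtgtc
Epcam (chr17:87635729-87636028, plus strand): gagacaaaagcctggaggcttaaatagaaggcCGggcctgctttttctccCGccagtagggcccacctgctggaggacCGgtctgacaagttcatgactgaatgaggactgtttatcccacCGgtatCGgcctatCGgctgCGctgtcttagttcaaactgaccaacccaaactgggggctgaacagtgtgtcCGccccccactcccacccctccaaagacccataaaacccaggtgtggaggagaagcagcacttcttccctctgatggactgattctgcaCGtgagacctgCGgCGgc

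CpG dinucleotides numbered 34 in the Adgra3 window, 29 in Mcam, 27 in Itgb1, 18 in Cd9 and 11 in Epcam. The SOX consensus was searched on both strands as NNCAANG with N standing for A or T only, which gives 8 heptamers, and none of these 5 windows held one. Of the 9 genes, only Cdh1 had a heptamer in the 300 bases at its start site, against 23.02% of all such windows and 12.9% of those rich in CpG. A match or its absence describes the letters in the window only.

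SOX3 peaks lay at the start sites of most of the sorting markers. Promoter peaks, those within 2 kb of the start site, were listed for 8 of the 9 genes in replicate 1 (all genes, 62.7%) and for 7 in replicate 2 (all genes, 54.7%). The same 7 genes, Itga6, Itgb1, Epcam, Adgra3, Cd9, Mcam and Cd24a, had one in both replicates (all genes, 52.2%). With a q score above 60 the count was 5 (all genes, 35.2%). In each of the 7 the peaks of the replicates overlapped by at least 50% of the smaller peak, as did those of 95.9% of all genes with a promoter peak in both. Cdh1 had a promoter peak in replicate 1 only, and Thy1 had none in either. With 9 genes chosen by name, 1 condition and peak lists without counts, no test of these shares was made.

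The caller's score, called the q score here, is the negative log10 of the FDR-adjusted p-value of a peak times 10, and the log2 ratio is ChIP over input. Both are the authors' values for a peak and carry no error of their own. Over the genes with a promoter peak, the strongest q score ran from 71.6 (Cd24a) to 417 (Itgb1) in replicate 1, with a median of 141 (n = 8 genes), and from 47.3 (Cd9) to 131 (Itgb1) in replicate 2, with a median of 93.5 (n = 7 genes). The medians for all genes with a promoter peak were 165 and 78.8. By q score the sorting markers sat below the all-gene median in replicate 1 and above it in replicate 2, and their median percentile among such genes was 43.8 and 59.5. By log2 ratio they sat above it in both, with median percentiles of 64.0 and 59.6 (mean 61.8). The replicate 1 medians include Cdh1, which had no promoter peak in replicate 2. Among the 7 genes with both, the middle one by q score was Mcam in each list. Its percentile was 49.9 in replicate 1, about the all-gene median, and 59.5 in replicate 2.

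**Figure D1:**
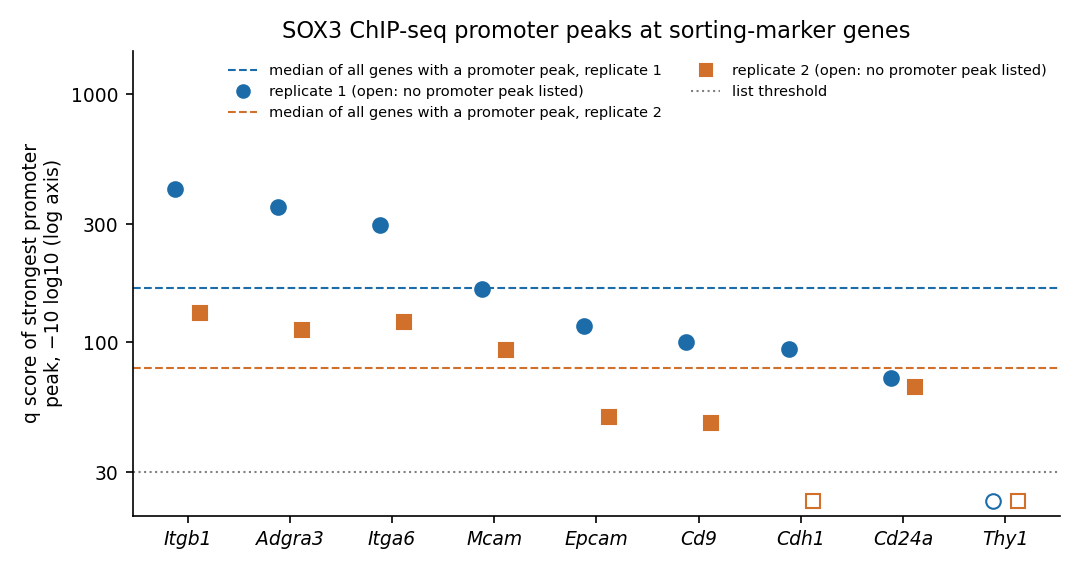
q score of the strongest SOX3 promoter peak of each sorting marker in replicate 1 (circles) and replicate 2 (squares), on a log axis; dashed lines are the medians of all genes with a promoter peak, the dotted line is the threshold of 30 of the lists, and open symbols below it mean that no promoter peak was listed. Itgb1, Adgra3 and Itga6 had the highest q scores in both replicates, Cdh1 had a peak in replicate 1 only and Thy1 had none.

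The laminin receptor subunits were among the strongest. Itgb1 (chr8:128685654-128733579), the β1 chain shared by many integrins, had a q score of 417 in replicate 1 and 131 in replicate 2. Its log2 ratio was 3.95 and 2.75. Both values of the q score were the highest of the 9 genes, at percentile 90.7 and 79.6 of all genes with a promoter peak. The peaks ran from -743 to 1159 bp and from -658 to 960 bp around the start site, and no other peak lay in the gene in either list.

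Itga6 (chr2:71786939-71858427), the α6 chain that pairs with β1 or β4 and binds laminin, had a q score of 298 and 121 and a log2 ratio of 4.02 and 3.15. These were at percentile 78.1 and 75.7 by q score. The peaks covered the start site, from -547 to 1603 bp in replicate 1 and from -389 to 1057 bp in replicate 2. The 300 bases at its start site had a CpG observed over expected ratio of 0.859.

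Adgra3 (chr5:49959951-50058996, minus strand), the adhesion receptor whose expression was used to mark stem and progenitor spermatogonia, stood with the integrins. Its q score was 352 in replicate 1 and 112.5 in replicate 2, and its log2 ratio 4.11 and 3.49. The percentile was 85.3 and 71.0. Its peaks ran from -904 to 1152 bp and from -613 to 874 bp, and its start site was the richest in CpG of the 9 (0.889).

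Cd9 (chr6:125460266-125494760, minus strand), the tetraspanin partner of these integrins, had lower scores. The q score was 100.2 in replicate 1 and 47.3 in replicate 2, the lowest of the 7 genes in replicate 2, at percentile 32.9 and 22.6. Its log2 ratio was nearly the same in both, 2.97 and 2.83. The peaks covered the start site from -811 to 1119 bp and from -304 to 970 bp.

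Mcam (chr9:44134658-44142726), which binds endothelial and other cells to each other, was close to the median of all genes, at percentile 49.9 and 59.5. Replicate 1 listed 2 promoter peaks, one over the start site (q score 164, log2 ratio 4.71) and a smaller one from 1523 to 2213 bp downstream (q score 32.8, log2 ratio 2.30). Replicate 2 listed a single peak of 3066 bp over both places, with a q score of 93.5 and a log2 ratio of 2.90. A start site of the neighbouring gene Gm10687 lay within 2 kb of all of these peaks, so they belong to both genes by the rule.

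Epcam (chr17:87635979-87651127), the homophilic adhesion protein of epithelia that is also carried by spermatogonia, had a q score of 117 and 50.01 and a log2 ratio of 3.97 and 2.88. The percentile was 37.7 and 25.6. The replicate 1 peak ran from -277 to 1327 bp and the replicate 2 peak from 211 to 1328 bp, so only the first covered the start site. The 300 bases at the Epcam start site were poor in CpG (observed over expected 0.454), whereas the 2 peaks, which reached into the gene, had ratios of 0.850 and 0.924.

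Cd24a (chr10:43579169-43584265), the small mucin-like protein, had the lowest q score of the 8 genes in replicate 1, at 71.6, and 66.3 in replicate 2. Its percentile was 24.4 and 40.0. It was the only gene whose log2 ratio was higher in replicate 2, at 3.66 against 2.88 in replicate 1. The replicate 1 peak extended further upstream, from -1635 to 647 bp, than the replicate 2 peak, from -566 to 641 bp.

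**Figure D2:**
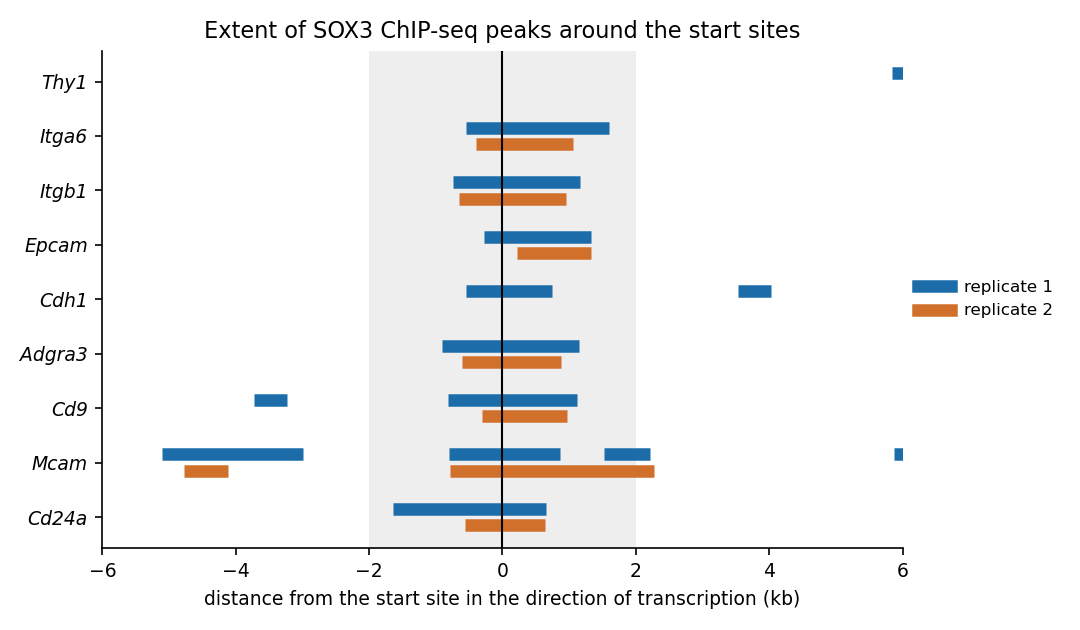
Extent of SOX3 ChIP-seq peaks within 6 kb of the start site of each sorting marker, in kb in the direction of transcription, with replicate 1 in blue and replicate 2 in orange; the grey band is the promoter window of 2 kb either side. Peaks of both replicates covered the start site of 6 genes, Epcam had a replicate 2 peak that began 211 bp downstream, Cdh1 had a bar in replicate 1 only, and Thy1 had none in the band.

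Cdh1 (chr8:106603350-106670247), the classical cadherin of epithelial junctions, differed between the lists. Replicate 1 had a promoter peak from -547 to 736 bp with a q score of 94.3 (percentile 31.2). Its log2 ratio of 5.34 was the highest of the sorting markers, at percentile 96.5 of all genes with a promoter peak. Replicate 2 had no peak in the promoter window. Genes with a promoter peak in replicate 1 alone made up 10.5% of all genes (2752), and their median q score was 44.8. Of these, 253 (9.19%) had a higher q score than Cdh1.

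Thy1 (chr9:44043384-44048579), the protein by which the study's own uSPG were isolated, had no peak at its start site and none in its gene body in either replicate. The same lack of a promoter peak in both lists was found for 34.8% of all genes. The nearest peak in replicate 1 (chr9:44049233-44049857, q score 41.2, log2 ratio 3.53) began 5849 bp from the start site, just past the 3′ end of the gene, and was not found in replicate 2. There the nearest peak began 23140 bp away, at a start site of Usp2, a ubiquitin-specific protease. The 300 bases at the Thy1 start site had a CpG observed over expected ratio of 0.418, the lowest of the 9 genes.

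The q score was higher in replicate 1 for all 7 sorting markers with a promoter peak in both lists, as it was for 95.9% of all genes with both. The ratio of the q scores, replicate 1 over replicate 2, ran from 1.08 (Cd24a) to 3.17 (Itgb1) with a median of 2.34 (n = 7 genes), beside a median of 2.29 over all genes with both. The log2 ratio was higher in replicate 1 for 6 of the 7, with a median difference of 0.87 (all genes, 1.09) and a range from -0.78 (Cd24a) to 1.81 (Mcam). By q score Itgb1 led in both lists, Adgra3 and Itga6 changed places behind it, and Mcam came next in both. By log2 ratio the order was not kept, since Mcam led the 7 genes in replicate 1 but not in replicate 2, and Cd24a went from last to first.

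Most of the sorting markers have start sites rich in CpG. A start site is called CpG-rich here when its 300 bases have a CpG observed over expected ratio of 0.6 or more, which held for 44.2% of all genes and for 7 of the 9 sorting markers, all but Thy1 and Epcam. Among all genes with a CpG-rich start, 86.9% had a promoter peak in both replicates, and among the others 24.8%. Of the 7 CpG-rich sorting markers, 6 had a peak in both replicates and the other one was Cdh1, which at 0.627 lay nearest the boundary. Cd9 had a ratio of 0.689, Mcam 0.733, Itgb1 0.798 and Cd24a 0.812. The part of base composition in the presence of peaks was not tested.

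**Figure D3:**
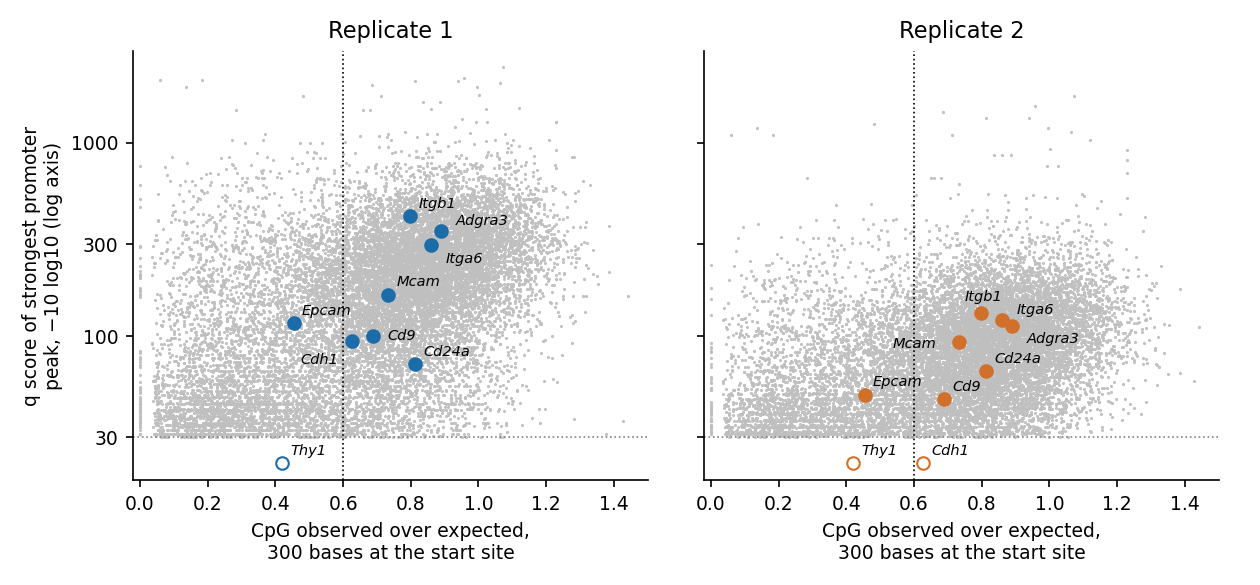
q score of the strongest promoter peak (log axis) against the CpG observed over expected ratio of the 300 bases at the start site, for replicate 1 (left) and replicate 2 (right); grey points are all genes with a promoter peak, the vertical dotted line is the ratio of 0.6 and the horizontal one the list threshold of 30, and open circles below it have no promoter peak. The sorting markers lay within the cloud of all genes, with Itgb1, Adgra3 and Itga6 high on its right side and Epcam left of the line.

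Gene body peaks were weaker than promoter peaks and were seldom the same in both lists. Gene body peaks, beyond 2 kb from a start site, were listed for 6 of the 9 genes in replicate 1 (all genes, 35.7%) and for 4 in replicate 2 (all genes, 27.9%). The 4 genes Itga6, Cdh1, Adgra3 and Cd9 had them in both (all genes, 22.3%). These 4 genes are 34.5 to 99.05 kb long, and Itgb1, of 47.9 kb, had none. With a q score above 60, none of the 9 genes had one in both lists, beside 2.73% of all genes. The q scores of all body peaks of the 9 genes reached 76.9 in replicate 1 and 45.3 in replicate 2, with medians of 41.7 (17 peaks) and 36.7 (13 peaks). Of the 17 peaks, 1 was covered to at least 50% by a replicate 2 peak, and of the 13, 2 by a replicate 1 peak. Promoter peaks were matched in this way for 8 of 9 and for 7 of 7. The whole lists showed the same contrast. There, 11.9% and 28.4% of peaks outside promoters were matched, against 59.0% and 85.4% of promoter peaks.

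Cd9 held the one gene body peak of these genes that was found in both lists from either side. The replicate 1 peak (chr6:125480961-125483219) had a q score of 76.9 and the replicate 2 peak (chr6:125480638-125482130) one of 45.3, with a log2 ratio of 3.28 in both. They shared 1170 bp in an intron. The middle of that interval is shown because it was the best replicated site outside a promoter in any of the gene bodies, and capitals mark its SOX heptamer. The heptamer lies near the end of the printed window. The central 300 bases of the replicate 2 peak held a heptamer, and those of the replicate 1 peak held none. Of all peaks, 23.9% in replicate 1 and 22.2% in replicate 2 held one there.

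Cd9 intron (chr6:125481396-125481695, minus strand): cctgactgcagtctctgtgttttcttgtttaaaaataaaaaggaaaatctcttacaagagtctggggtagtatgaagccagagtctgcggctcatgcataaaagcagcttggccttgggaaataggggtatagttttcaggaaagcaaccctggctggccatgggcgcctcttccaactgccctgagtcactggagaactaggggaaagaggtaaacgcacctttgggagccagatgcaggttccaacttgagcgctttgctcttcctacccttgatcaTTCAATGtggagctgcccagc

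Adgra3 had 2 body peaks in replicate 1 and 4 in replicate 2. One pair overlapped in an intron (chr5:50034480-50035800, q score 32.6, and chr5:50034322-50034826, q score 30.1), by 347 bp. This was 68.7% of the replicate 2 peak and 26.3% of the replicate 1 peak, and both scores lay just above the threshold of 30. The middle of the shared bases is printed beside that of Cd9 for comparison and holds none of the 8 heptamers.

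Adgra3 intron (chr5:50034504-50034803, minus strand): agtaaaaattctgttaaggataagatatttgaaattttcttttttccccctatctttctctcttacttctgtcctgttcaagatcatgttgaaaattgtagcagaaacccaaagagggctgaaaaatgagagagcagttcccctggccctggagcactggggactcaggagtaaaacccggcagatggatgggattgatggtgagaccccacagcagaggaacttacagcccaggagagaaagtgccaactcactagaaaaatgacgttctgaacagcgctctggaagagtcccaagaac

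Both intron windows were poor in CpG, with 4 dinucleotides in Cd9 and 3 in Adgra3, unlike the promoter windows of the same genes above. Over all body peaks of the 9 genes the median CpG ratio was 0.222 in replicate 1 and 0.225 in replicate 2, against 0.746 and 0.791 for their promoter peaks. Body peaks were also narrower, with a median width of 717 and 541 bp against 1903 and 1447 bp.

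Cdh1 had the most body peaks in replicate 1, with 9, but only 2 in replicate 2, fewer than Itga6, Adgra3 or Cd9. All lay in introns, and none was found in the other list. In replicate 1 they had q scores from 31.4 to 66.3 and came to 1.34 per 10 kb of gene. Of the 10443 genes of 20 kb or more, 6.48% had a higher density. In replicate 2 the density was 0.299 per 10 kb, and 24.2% of those genes exceeded it. Cd9, Itga6 and Adgra3 ranked below Cdh1 in replicate 1, exceeded by 20.6%, 36.35% and 42.3% of those genes. In replicate 2 they ranked above it, exceeded by 5.16%, 10.95% and 17.7%. The 9 Cdh1 body peaks of replicate 1 all held a heptamer, 7 of them in their central 300 bases. Of all peaks in that list, promoter peaks included, 23.9% had one in the central 300 bases. No share over whole peaks or over intron peaks alone was computed, so the Cdh1 counts are not read as an enrichment. The 2 Cdh1 body peaks of replicate 2 had q scores of 44.7 and 31.2, and 1 of them held a heptamer. Itga6, of 71.5 kb, had 2 body peaks in replicate 1 and 4 in replicate 2 (q scores 30.5 to 43.3), none of which overlapped between the lists by the rule. Epcam had a single body peak (q score 31.1) and so had Mcam (48.8), both of them absent from replicate 2.

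**Figure D4:**
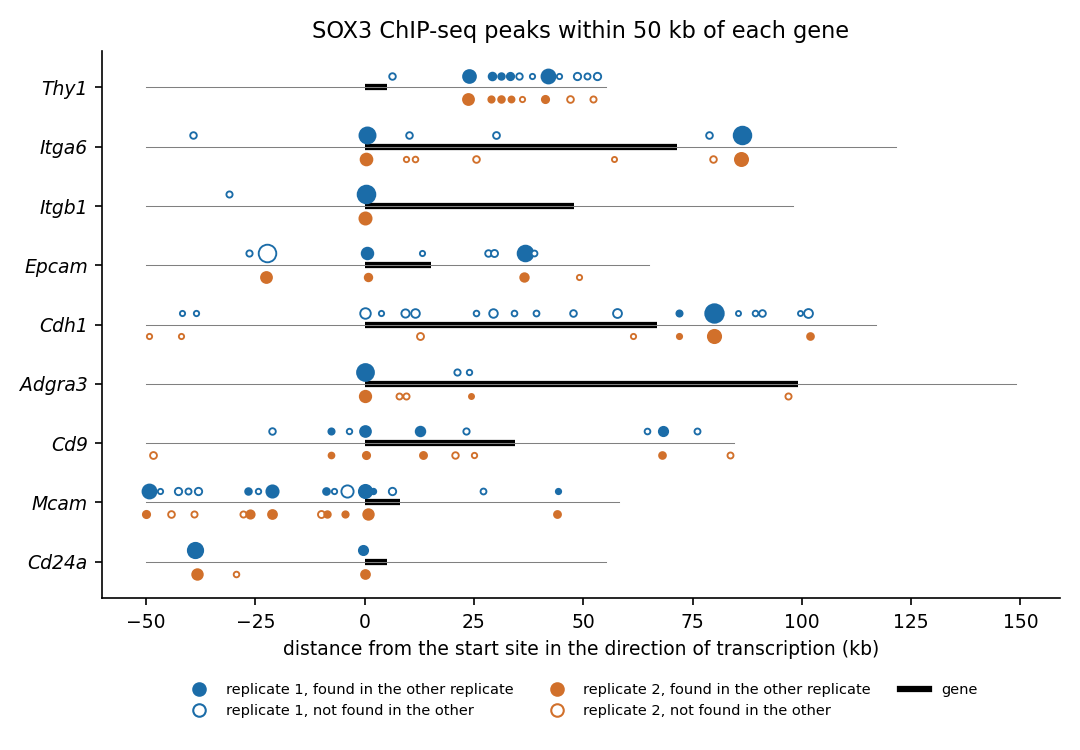
SOX3 ChIP-seq peaks within 50 kb of each sorting marker, placed by the distance of their midpoint from the start site in kb, with larger symbols for higher q scores; replicate 1 is above the gene and replicate 2 below it, and filled symbols are peaks found in the other replicate. The 9 body peaks of Cdh1 in replicate 1 are all open symbols, and the peaks of Thy1 all lie on its 3′ side.

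Flanking peaks, outside the gene and within 50 kb, were present in both replicates for 7 of the 9 genes (all genes, 69.7%), the exceptions being Itgb1 and Adgra3. Adgra3 had none in either list and Itgb1 had 1, in replicate 1 only. Once each peak was counted once, the 9 loci held 46 flanking peaks in replicate 1 and 31 in replicate 2. The windows of Thy1 and Mcam overlap on chromosome 9 and shared 5 of these peaks in replicate 1 and 3 in replicate 2. The stronger flanking peaks were those at start sites of other genes. Of 11 with a q score above 60 in replicate 1, 8 lay within 2 kb of another gene's start, and in replicate 2 all 7 did. Flanking peaks were matched for 16 of 46 (34.8%) in replicate 1 and 19 of 31 (61.3%) in replicate 2. Those at another gene's start were matched for 8 of 10 and 9 of 10, and those elsewhere for 8 of 36 and 10 of 21.

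These neighbouring promoters often had higher scores than the sorting marker itself. Beside Cdh1 the peak at Tango6, a gene of Golgi organization, had a q score of 493 and 165, the highest at any of the 9 loci. Pdk1, a pyruvate dehydrogenase kinase downstream of Itga6, had 408 and 161. On the Epcam locus, the peak at the start of Gm46609 had 408 and 102. Mtres1, beside Cd24a, had 255 and 94.5. All of the 12 peaks and 8 peaks around Thy1 lay on its 3′ side, towards and within Usp2, where the start site peaks had q scores of 151 and 192 in replicate 1 and of 103 and 47.4 in replicate 2. Around Mcam the start of Rnf26 had 134 and 66.9.

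Of all 72 peaks at the 9 loci in replicate 1, 25 (34.7%) were matched in replicate 2, and of 51 in replicate 2, 28 (54.9%) were matched in replicate 1. The whole lists gave 25.1% and 48.4%. Over all genes, 59.0% and 85.4% of promoter peaks were matched, and 11.9% and 28.4% of other peaks. The values themselves were coarse: 71 of the 72 peaks and all 51 had p score, q score and log2 ratio identical to those of at least 1 other peak of their list, as had 98.7% and 98.6% of the whole lists.

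Heptamers were also counted in the central 300 bases of each peak. These bases held one in 0 of 9 promoter peaks in replicate 1 and 0 of 7 in replicate 2. Over their whole length, promoter peaks of Itga6, Itgb1, Cdh1 and Cd24a in replicate 1 held one, as did those of Mcam and Cd24a in replicate 2. The share for promoter peaks of all genes was not computed, so the counts of 0 are not read as a depletion. Among CpG-rich starts of all genes, 12.9% of the windows of 300 bases held one. In the central 300 bases of body peaks the numbers were 9 of 17 (52.9%) and 3 of 13 (23.1%), and of flanking peaks 13 of 46 and 5 of 31. Over the central 300 bases of all peaks of the 9 loci this made 30.6% and 15.7%, beside 23.9% and 22.2% of the whole lists. The replicate 1 share of body peaks rests on Cdh1, which gave 7 of the 9.

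ChIP-nexus, in which exonuclease digestion narrows the DNA to the protein's footprint, gave no peak within 50 kb of any of the 9 genes. The lists were short, with 110 peaks on the chromosomes in replicate 1 and 18 in replicate 2. The nearest peak lay 3.32 Mb from Cd24a. By the study's read numbers, these libraries had far fewer unique reads than those of ChIP-seq. The share of all genes with a ChIP-nexus peak within 50 kb was not computed. The lack of one is therefore not read as a feature of the 9 genes.

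Related surface genes were taken from 7 lists of 84 genes to place the sorting markers among their families. A promoter peak in both replicates was listed for 49 of the 84 (58.3%), beside 7 of the 9 sorting markers (77.8%) and 52.2% of all genes. Among 23 other integrin subunits only 7 had one (30.4%), with median percentiles of 17.6 and 18.6 over those with a peak in replicate 1 and in replicate 2, so that Itga6 and Itgb1 ranked with the highest of their family. Those nearest to them were Itgav, the αv chain (q score 350 and 119), and Itgb8, its partner (324 and 121). By mean percentile over both replicates, Itgav (79.87) and Itgb8 (78.74) stood below Itgb1 (85.15) and above Itga6 (76.89). Itgb4, the other β chain that pairs with α6, had a peak in replicate 1 only, with a q score of 57.4. It was named for this pairing after its value was seen.

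The laminin chains and the proteins that link integrins to actin had a peak in both lists for 11 of 12 genes, with median percentiles of 62.6 and 56.2. Vcl (vinculin) had q scores of 473 and 220.5 and Ptk2 (focal adhesion kinase) 431 and 169. Of 11 other tetraspanins 7 had one (median percentiles 52.2 and 52.6), led by Cd151, which associates with laminin-binding integrins (349 and 228.5), and Cd81 (423 and 164). Cd9 ranked below both of these and below the median of its family in each list.

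Cadherins and catenins had a promoter peak in both lists for 7 of 11 genes, with median percentiles of 24.6 and 39.4. The catenins Ctnnb1 (995 and 357) and Ctnna1 (457 and 214), which tie cadherins to the cytoskeleton, led the list, far above Cdh1. The relatives of MCAM, EPCAM and ADGRA3 had one for 6 of 9 (median percentiles 26.8 and 28.5), led by Jam3 (197 and 63.8) and Bcam (112.5 and 56.9).

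Receptors carried by spermatogonia, among them receptors of growth factors, a chemokine, ephrins and collagen, had one for 9 of 10 (median percentiles 37.9 and 30.8). Lifr (478 and 129) and Ddr1 (327 and 138) led, and Kit, the receptor of differentiating spermatogonia, had 91.2 and 50.3. Surface markers of blood, endothelial and stromal cells had one for 2 of 8 (median percentiles 22.5 and 15.3), with none of the 8 starts CpG-rich. The 2 were Pdgfra (102 and 42.1) and Pdgfrb (35.7 and 33.9). Thy1, which stromal and lymphoid cells also carry, had no promoter peak in either list. The same held for 4 of these 8 genes, for 13 of all 84 related genes and for 34.8% of all genes. The lists differ in how many starts are CpG-rich, and their shares were not tested against each other.

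**Figure D5:**
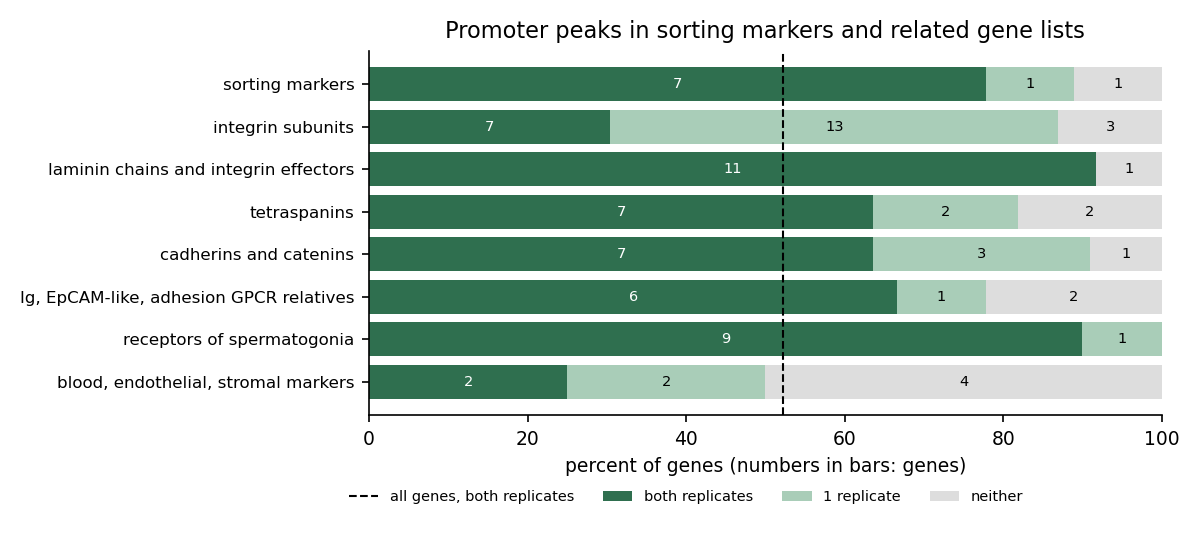
Percent of genes with a SOX3 promoter peak in both replicates (dark), in 1 replicate (light) or in neither (grey), for the sorting markers and the 7 related lists, with the number of genes in each bar; the dashed line is the 52.2% of all genes with peaks in both. The sorting markers reached 77.8%, between the receptors of spermatogonia (90%) and the relatives of MCAM, EPCAM and ADGRA3 (66.7%).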

How the data were processed

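SOX3 occupancy was measured in whole testis at postnatal day 7, with 2 replicates of ChIP-seq and 2 of ChIP-nexus. Per the study, the replicates were independent biological ones. The authors aligned reads to mm10 with Novoalign, removed duplicates with Picard and called ChIP-seq peaks per replicate against input with USeq, keeping a score above 30. The authors' score for a peak is 10 times the negative log10 of its p-value or FDR-adjusted p-value, and the authors' log2 ratio is ChIP over input. Columns of these deposited files are unnamed, and were read from the caller's layout and the values. The deposited ChIP-nexus lists (MACS2 2.1.1) give a fold ratio and −log10 p and q, of which only positions were used. The lists hold no read counts. The study gives read numbers for each library, with more unique reads in replicate 2 than in replicate 1 of ChIP-seq and far fewer in ChIP-nexus, but no interval was computed from them.

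Start sites were those of 45756 RefSeq curated transcripts, with each of the 9 genes having 1. A peak was promoter if its edge lay within 2 kb of a start site, gene body if it overlapped the gene otherwise, and flanking within 50 kb. A peak was matched if a single peak of the other replicate covered at least 50% of it. Percentiles rank the strongest promoter peak among all genes with one. Analyses used Python 3.11.15, pandas 2.3.3 and numpy 2.4.6, and overlaps were checked against bedtools 2.31.1. The genes and lists were chosen with earlier results of these data known, and no test was made. All 9 genes are named, with Kit and, of each related list, the 2 genes with the highest mean percentile over both replicates; other genes are named only where their start site lies within 2 kb of a printed peak. Itgb4 was added after its value was seen. Promoter sequences are those of the RefSeq table rather than the middle of the shared peak, and of shared peaks elsewhere only those in gene bodies are printed. Alternatives covered the score threshold, windows, overlap, annotation (GENCODE M21), motif, ranking and each replicate alone.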

Additional observations from a re-analysis of the deposited data

How the results depend on the processing

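Of 34 recomputed values, 30 stayed near the reported count or within the spread between replicates, and 4 moved. The matched share, the motif share and the percentile are means of both replicates. Their values from 1 replicate lie within that spread by construction, so they are no sign of stability. With a q score above 60, the number of sorting markers with a gene body peak in both replicates went from 4 to 0, and the mean share of matched peaks from 44.8% to 73.9%. The mean share of peaks with a SOX motif, 23.1%, went to 4.044% with AACAAT, which is contained in AACAATG, and to 9.19% in the central 100 bases. The cause was not tested beyond these settings. The count with promoter peaks in both replicates stayed at 7 with GENCODE M21 transcripts and with windows of 1 kb and 5 kb, and was 5 with a q score above 60, without Cd9 and Epcam. Ranking by log2 ratio gave a median percentile of 61.8 in place of 51.6, above the all-gene median in both replicates. With 1 list alone, promoter peaks were found for 7 to 8 genes, gene body peaks for 4 to 6, flanking peaks for 7 to 8, matched shares were 34.7% to 54.9%, motif shares 15.7% to 30.6% and the median percentile 43.8 to 59.5. Overlap of promoter peaks could not be had from 1 list. The ChIP-nexus count of 0 had no alternative. No paired analysis was possible because the results come from no test. Without read counts per region, no limit was set for a missing peak.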
